A study of Mus musculus with 4 samples.

Results

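The genes described here are 44 members of the interferon response and of class I antigen presentation, measured by RNA sequencing in isolated mouse pancreatic islets. They are the rows of the deposited tables whose gene symbol equals 1 of 44 listed names, out of 23235 symbols in each table. Each member has 1 row and a value of status OK in each of the 4 libraries. The listing comprises 38 interferon response genes (sensors, transcription factors and effectors) and 6 class I presentation genes. The islets came from C57BL/6 mice that were wild type (WT) or KR mutant. The study concerns the transcription factor FoxO1, and KR is known as a FoxO1 allele whose acetylated lysines were changed to arginine. Each genotype was studied after a fast and after refeeding, which gives 4 groups with 1 library each. The characteristics in the labels give a fast of 48 h and 6 h of refeeding, whereas the extraction protocol gives a fast of 24 h. Every library is a pool, since the islets of 3 mice per genotype were combined for RNA extraction, and the mice's age is not given in the sources used here. No group has a replicate library.

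Interferons are secreted alarm proteins that cells make after receptors such as RIG-I sense foreign nucleic acid. They bind receptors on the cell surface, whose JAK kinases phosphorylate transcription factors, among them STAT2, which acts with IRF9 in a complex that binds the interferon-stimulated response element in front of many genes. The products include antiviral effectors, the sensors and transcription factors themselves, and the molecules that display peptides of the cell's own proteins on class I heavy chains. In islets, interferon-induced genes and high class I on beta cells are known from autoimmune diabetes.

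Promoter sequences of the members were searched for the letters of 2 such elements. RefSeq promoters of build GRCm38.p6, running from 250 bases before to 50 bases after a gene's start, were given for 36 of the 44 members. The core of the interferon-stimulated response element, GAAA, any 2 bases and GAAA again, was found on either strand in a promoter of 15 of these 36 members (41.7%) and of 3.99% of all 27025 genes in the table. The letters TTCNNNGAA, the gamma-activated site, were found for 8 of 36 members (22.2%) and for 9.55% of all genes. A match of letters is a description of the window and does not show that a factor binds there. The stretches below are shown because they hold the match in members that rose after refeeding (Ifit1, Irgm1, Igtp, Oas1a), in the member called between genotypes (B2m) and in a classical target that was hardly expressed (Isg15). Each reads 5′ to 3′ along the gene's own strand, with the matched letters in capitals, and a match on the opposite strand reads TTTC, 2 bases and TTTC.
Ifit1, chr19:34640760-34640838, plus strand: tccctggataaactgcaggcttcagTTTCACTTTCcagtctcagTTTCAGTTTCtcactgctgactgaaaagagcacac
Irgm1, chr11:48871410-48871475, minus strand: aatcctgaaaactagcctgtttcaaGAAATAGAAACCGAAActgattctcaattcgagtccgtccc
Igtp, chr11:58199497-58199556, plus strand: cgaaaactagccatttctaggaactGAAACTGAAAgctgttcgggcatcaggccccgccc
Oas1a, chr5:120907505-120907570, minus strand: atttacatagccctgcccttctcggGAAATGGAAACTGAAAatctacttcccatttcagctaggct
B2m, chr2:122147523-122147582, plus strand: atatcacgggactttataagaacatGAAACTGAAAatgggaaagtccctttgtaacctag
Isg15, chr4:156200850-156200921, minus strand: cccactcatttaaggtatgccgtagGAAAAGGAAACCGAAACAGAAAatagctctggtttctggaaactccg
Counted from the annotated start as position 0, the first match lay at -104 in Ifit1, -30 in Irgm1, -34 in Igtp, -20 in Oas1a, -139 in B2m and -78 in Isg15. Ifit1 has 2 separate matches, while Irgm1 and Oas1a have 2 and Isg15 has 3 that overlap in 1 run. Oasl2, the member with the largest rise, holds no match in its window, and the next 3, Rtp4, Parp9 and Usp18, have no promoter in the table. Among the tested members, the median log2 change with refeeding was 0.51 for the 12 with a match and 0.27 for the 18 without. It was 0.77 for the 6 that the table does not hold, and these medians were not tested. Of the 12, 18 and 6, the numbers called higher were 8, 9 and 5. Stat2, Irf2, Rsad2 and Bst2 hold a match and did not pass for refeeding.

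Levels are given as FPKM, fragments scaled to transcript length and library size, as deposited, with the lower and upper bound that the files list. These bounds cover counting error only. Where 4 levels stand in a row, the first pair is WT and KR after the fast, and the second pair is WT and KR after refeeding. Islet hormone genes were at high levels, with Gcg (glucagon) at 21258 to 26161 and Sst (somatostatin) at 2652 to 3151. Depth implied by the bounds, as a multiple of that of the fasted WT library, was 1.01 for the fasted KR library and 0.683 and 0.418 for the refed WT and KR libraries, so the refed libraries were shallower, and its part in the refeeding results was not tested. Of the 44 members, 36 had a mean FPKM of at least 1 and were tested, and 8 lay under 1. The lowest tested mean was 1.005 (Oasl1), a gene that passed this filter through its refed values, and the highest mean left out was 0.937 (Gbp2). The class I chains H2-K1, H2-D1 and B2m stood above all other members, H2-K1 at 485 to 539, followed by Tapbp at 107 to 128, whereas the highest interferon response gene, Irf1, stood at 27.0 to 40.4.

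**Figure D1:**
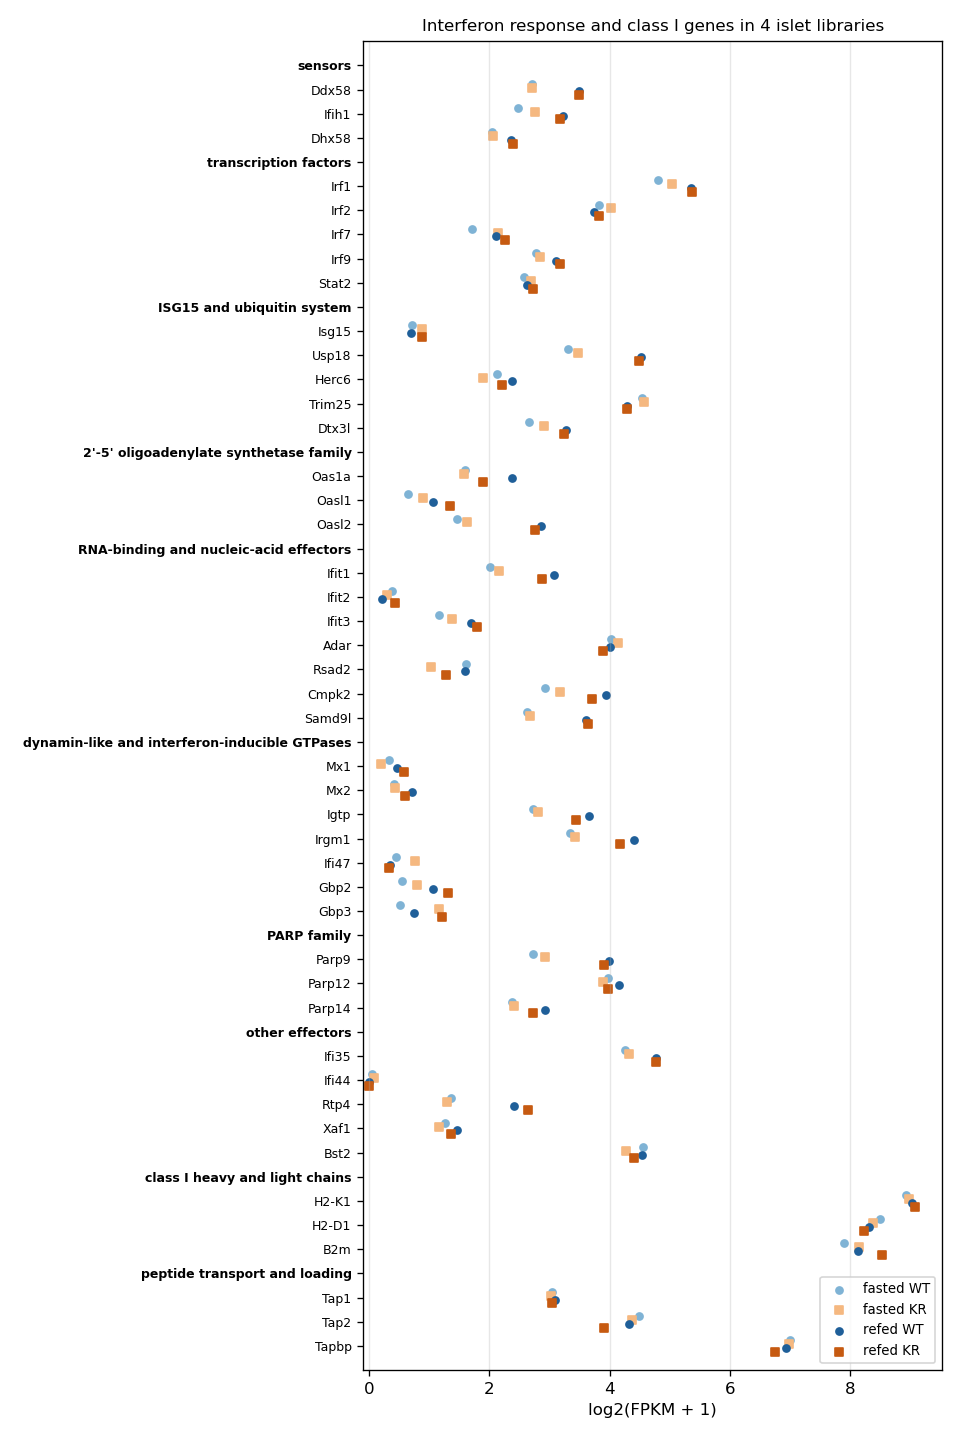
Level of each of the 44 genes, by role, as log2(FPKM + 1) in the 4 islet libraries (circles WT, squares KR, light fasted, dark refed). The dark points of Usp18, Oasl2, Rtp4, Parp9 and Samd9l lie to the right of their light points in both genotypes, while H2-K1, H2-D1 and B2m lie to the right of all other genes.

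The interferons themselves were almost without reads. Of 19 listed ligand genes, 17 were listed at 0 in all 4 libraries, among them Ifnb1 (interferon beta) and Ifng (interferon gamma), and the 2 others, Ifnab and Ifnz, lay at or under an FPKM of 0.199. The receptors were expressed. Ifnar1 stood at 7.49, 7.38, 7.25 and 7.09 and Ifnar2 at 45.2, 48.1, 52.8 and 49.2. Neither receptor gene passed the refeeding test (log2 changes -0.05 ± 0.08 and 0.13 ± 0.07, SE over 4 libraries). Of 15 tested receptor and JAK-STAT genes (17 listed), 1 rose and 6 fell with refeeding (27.7% and 29.2% of all genes tested). The fallers included the kinase gene Jak2, by 0.41, and Socs3, which encodes a feedback inhibitor of JAK signalling, by 0.55 on the log2 scale, and the gene that rose was Pias1, a SUMO ligase gene, by 0.42.

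After refeeding, most expressed interferon response genes rose, in both genotypes, while class I genes went different ways. In an additive limma model of feeding state and genotype over the 4 libraries, refeeding raised 22 of the 36 tested members and lowered 3, and 11 did not pass. The 22 include Oasl1, which was tested only because of its refed values, so its rise follows in part from the filter. Over all 11953 genes tested, 56.9% passed this test, 27.7% higher and 29.2% lower, and the members' share of rises was 61.1%. Of the 30 tested interferon response genes, 21 rose, 1 fell and 8 did not pass, at a median log2 change of 0.45, beside -0.01 over all genes tested. A rise of at least 0.5 on the log2 scale, about 1.41-fold, was found for 12 members (33.3%) and for 8.21% of all genes. The members were chosen with earlier results of these data known, so these shares describe the list and do not test it. Without a filter on low values the same model called 0 members and 0 of 23046 genes, with 16 members at an unadjusted p under 0.05. Each pool is bulk tissue, so fewer cells of a type and less RNA per cell cannot be told apart.

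Single pairs of libraries were compared without a test, as ratios of FPKM + 1. In WT, 7 tested members were at least 2-fold higher after refeeding on this scale (1.11% of all genes), namely Oasl2, Parp9, Usp18, Irgm1, Ifit1, Rtp4 and Cmpk2, and 0 were 2-fold lower (2.4% of all genes). In KR, 3 members were at least 2-fold higher (0.577% of all genes), Rtp4, Oasl2 and Usp18, and 0 were 2-fold lower (1.75%). By FPKM alone, with nothing added, Samd9l, Igtp and Oas1a were also over 2-fold higher in WT, and Samd9l and Parp9 in KR. The refed value lay above the fasted one with bounds that did not overlap for 22 members in WT (30.2% of all genes) and 19 in KR (23.1%), and for 19 in both genotypes (20.8%). It lay below for 3 members in WT (30.9%), 5 in KR (29.0%) and 3 in both (24.7%), namely Trim25, H2-D1 and Tapbp.

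**Figure D2:**
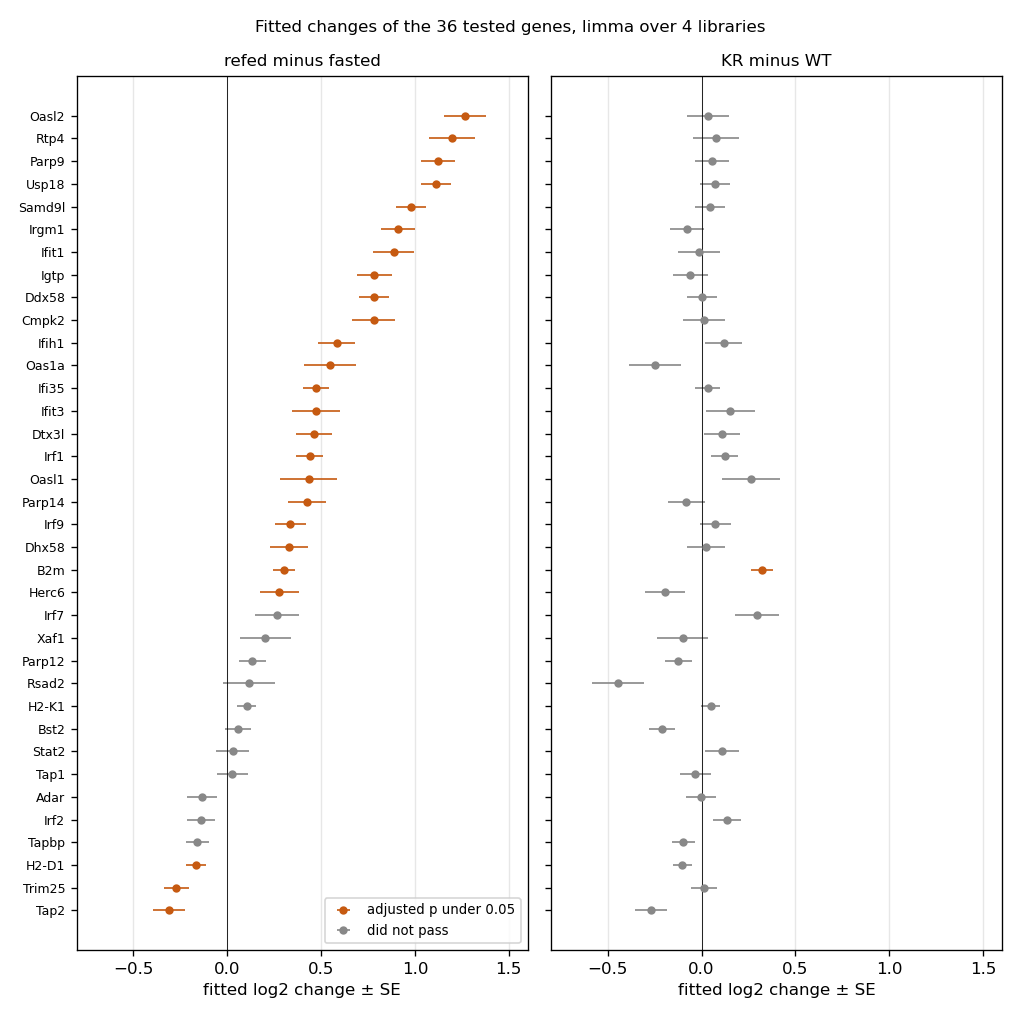
Fitted log2 changes of the 36 tested genes with their standard errors, refed minus fasted on the left and KR minus WT on the right, from limma over 4 libraries (orange, adjusted p under 0.05). With refeeding 22 genes lie to the right of 0 in orange, led by Oasl2 at 1.27, whereas between genotypes B2m alone is orange.

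The 3 cytosolic sensors of viral RNA all rose. Ddx58, the gene of RIG-I, on chromosome 4 at 40150809 to 40186858 (mm9, as for all loci of this kind here), had an FPKM of 5.50 in WT and 5.56 in KR before refeeding (bounds 5.08 to 5.92 and 5.14 to 5.98) and of 10.3 in WT and 10.2 in KR after it (9.56 to 10.9 and 9.31 to 11.1). Both refed libraries were thus high and both fasted ones low, with no overlap of bounds, and the genotypes were nearly equal within each state. Its fitted rise was 0.78 ± 0.08 (adjusted p = 9.41e-05). Ifih1, which encodes the long double-stranded RNA sensor MDA5, stood at 4.58, 5.76, 8.33 and 8.06 and rose by 0.58 ± 0.10 (adjusted p = 0.0013). Dhx58, the gene of the regulatory helicase LGP2, stood at 3.11, 3.16, 4.15 and 4.24 and rose by 0.33 ± 0.10 (adjusted p = 0.0223), although its bounds overlapped in both genotypes.

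Among the 5 transcription factors, 2 rose and 3 did not pass. Irf1, an activator of interferon-induced and class I genes, had an FPKM of 27.0, 31.9, 40.0 and 40.4, and rose by 0.44 ± 0.07 (adjusted p = 0.001). The 2 refed libraries were alike, and the fasted KR value lay between fasted WT and these. Irf9, a DNA-binding partner of STAT2, stood at 5.82, 6.20, 7.65 and 8.06 and rose by 0.34 ± 0.08 (adjusted p = 0.00828). Irf7, the amplifier of interferon alpha production, was low in fasted WT, at 2.26, and stood at 3.42, 3.33 and 3.80 in the other 3 libraries, a change of 0.27 ± 0.12 that did not pass (adjusted p = 0.0832). Stat2, at 4.98 to 5.58, and Irf2, a factor that competes with IRF1 for the same sites, at 12.4 to 15.2, had changes of 0.03 ± 0.09 and -0.14 ± 0.07.

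The genes around ISG15, a ubiquitin-like protein that is joined to other proteins in the interferon response, moved unequally. Usp18, on chromosome 6 at 121195923 to 121220935, encodes the protease that removes ISG15 and also restrains signalling at the interferon receptor. Its FPKM was 8.84 in WT and 10.2 in KR before refeeding (7.91 to 9.77 and 9.16 to 11.1) and of 21.96 in WT and 21.4 in KR after it (20.2 to 23.7 and 19.1 to 23.6). The refed libraries were 2.48-fold higher in WT and 2.11-fold higher in KR, and the fitted rise of 1.11 ± 0.08 (adjusted p = 1.77e-05) was number 55 in size of 11953 genes. Herc6, a ligase gene for ISG15 in mice, stood at 3.39, 2.72, 4.16 and 3.65 and rose by 0.28 ± 0.10 (adjusted p = 0.0482). Dtx3l, the ubiquitin ligase partner of PARP9, stood at 5.33, 6.54, 8.65 and 8.42 and rose by 0.46 ± 0.10 (adjusted p = 0.00337). Trim25, a ubiquitin ligase that acts on RIG-I, went the other way. Its FPKM was 22.4 and 22.7 before refeeding and 18.5 in both refed libraries, a fall of 0.27 ± 0.07 on the log2 scale (adjusted p = 0.00829).

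In the oligoadenylate synthetase family, the active enzymes make a signal that activates RNase L, which not every member does. Of its 3 listed genes Oasl2 and Oas1a rose, while the call of Oasl1 leans on the filter. Oasl2 on chromosome 5, a synthetase-like gene at 115346942 to 115362254, was measured at an FPKM of 1.75 in WT and 2.09 in KR before refeeding (1.45 to 2.05 and 1.76 to 2.42) and of 6.28 in WT and 5.78 in KR after it (5.58 to 6.97 and 4.93 to 6.64). It was 3.59-fold higher after refeeding in WT and 2.76-fold higher in KR. Its fitted rise of 1.27 ± 0.11 (adjusted p = 4.54e-05) was the largest of the 36 tested members and number 34 of all genes. Oas1a was high in 1 library, with an FPKM of 2.03, 1.99, 4.20 and 2.73, and rose by 0.55 ± 0.14 (adjusted p = 0.00894). In KR its bounds overlapped (1.57 to 2.42 fasted, 1.95 to 3.50 refed). Oasl1, which lies 10994 bases from Oasl2, stood at 0.559, 0.850, 1.08 and 1.53, a change of 0.43 ± 0.15 (adjusted p = 0.0368) in a gene that only its refed values brought into the test. Oas1a has near-identical neighbours such as Oas1g, and how the authors' counting divided reads among such copies is not given in the sources used here.

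Of the effectors that act on RNA or nucleotides, 4 rose, 2 did not pass and 1, Ifit2, was too low to test. Ifit1, which binds viral RNA that lacks the host's cap methylation, had an FPKM of 3.02, 3.49, 7.38 and 6.37, and rose by 0.89 ± 0.11 (adjusted p = 0.00023). Its relative Ifit3 stood at 1.24, 1.59, 2.22 and 2.46 and rose by 0.47 ± 0.13 (adjusted p = 0.013). Samd9l, a gene that restrains protein synthesis and growth, was even between genotypes, at 5.15 and 5.39 fasted and 11.2 and 11.5 refed, and rose by 0.98 ± 0.08 (adjusted p = 3.2e-05). A pair of neighbours on chromosome 12 parted. Cmpk2, a nucleotide kinase gene at 27154079 to 27164702, stood at 6.56, 8.02, 14.3 and 12.1 and rose by 0.78 ± 0.11 (adjusted p = 0.000506). Rsad2, the gene of the antiviral enzyme viperin, 12762 bases away, stood at 2.05, 1.05, 2.02 and 1.43, a refeeding change of 0.12 ± 0.14 (adjusted p = 0.5). The low values of Rsad2 were those of the 2 KR libraries. Adar, the RNA-editing deaminase gene, stood at 13.9 to 16.6 with a change of -0.13 ± 0.08, and its locus overlaps that of Chrnb2, which has an FPKM of 17.6 to 20.2.

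Among the interferon-inducible GTPases, which act against viruses or on vacuoles that hold microbes, the 2 that could be tested rose. Irgm1, on chromosome 11 at 48678750 to 48684848, regulates other members of this family and had an FPKM of 9.10 in WT and 9.69 in KR before refeeding (8.27 to 9.93 and 8.84 to 10.6) and of 20.2 in WT and 17.0 in KR after it (18.7 to 21.7 and 15.2 to 18.8). Both refed values lay above both fasted ones with no overlap of bounds, and the rise was 0.91 ± 0.09 (adjusted p = 7.41e-05). Igtp, also of this family, stood at 5.59, 6.01, 11.6 and 9.89 and rose by 0.78 ± 0.09 (adjusted p = 0.000202). The other 5, Mx1, Mx2, Ifi47, Gbp2 and Gbp3, had means under 1 and are given with the low genes.

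The PARP family, which attaches ADP-ribose to proteins, had 2 genes that rose and 1 that did not pass. Parp9 had an FPKM of 5.65 in WT and 6.59 in KR before refeeding (5.14 to 6.16 and 6.05 to 7.14) and of 14.9 in WT and 14.1 in KR after it (13.9 to 15.9 and 12.8 to 15.3), and rose by 1.12 ± 0.09 (adjusted p = 2.79e-05). Its deposited locus on chromosome 16 overlaps that of Dtx3l, so reads in the overlap cannot be told apart without strand. Parp14 stood at 4.19, 4.32, 6.56 and 5.59 and rose by 0.43 ± 0.10 (adjusted p = 0.00624). Parp12 was higher in level, at 14.6, 13.9, 16.8 and 14.7, with a change of 0.13 ± 0.07 (adjusted p = 0.143).

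Of the 5 remaining effectors, 2 rose. Rtp4, a chaperone gene for membrane receptors on chromosome 16 at 23610004 to 23614308, was low when fasted and high when refed in each genotype, with an FPKM of 1.57 (1.15 to 1.99), 1.44 (1.04 to 1.84), 4.31 (3.47 to 5.16) and 5.24 (4.05 to 6.42). It rose by 1.20 ± 0.12 (adjusted p = 8.69e-05). Ifi35 stood at 18.1, 19.1, 26.2 and 26.2 and rose by 0.47 ± 0.07 (adjusted p = 0.000465). Xaf1, a partner gene of the apoptosis inhibitor XIAP, stood at 1.23 to 1.75, with a change of 0.20 ± 0.14. Bst2, the gene of tetherin, which holds budding virus at the cell surface, stood at 22.4, 18.4, 22.4 and 20.1, with a change of 0.06 ± 0.07. Ifi44 was too low to test.

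**Figure D3:**
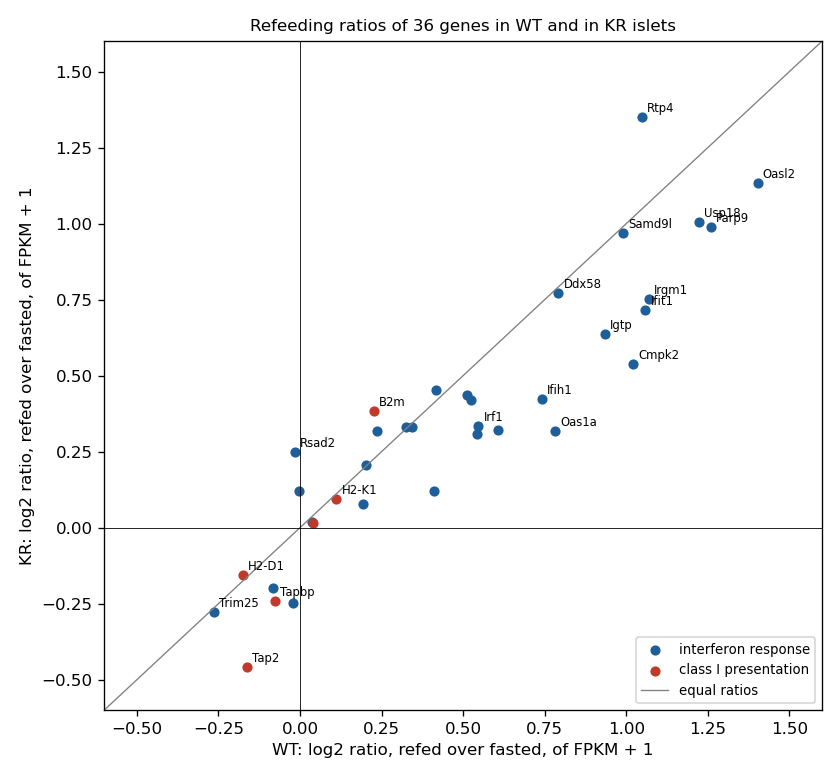
Log2 ratio of refed over fasted islets, of FPKM + 1, in WT (horizontal) and KR (vertical) for the 36 tested genes (blue, interferon response, red, class I presentation), with the line of equal ratios. Rtp4 lies above the line at 1.05 and 1.35, and Oasl2, Parp9, Usp18, Irgm1, Ifit1, Cmpk2 and Oas1a lie below it.

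The refeeding ratio was smaller in KR than in WT for 17 of the 21 interferon response genes that rose (81.0%), beside 69.0% of the 3308 genes that rose in the whole table. The median ratio of the 21 was 0.78 in WT and 0.45 in KR on the log2 scale, and that of the 3308 was 0.42 and 0.37. Cmpk2 had a ratio of 1.02 in WT and 0.54 in KR, and Oas1a had 0.78 and 0.32. Rtp4 went the other way, with 1.05 and 1.35. This difference of ratios has no test, because the model counts it as error.

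Refeeding raised 1 of the 6 class I presentation genes and lowered 2, and 3 did not pass, at a median log2 change of -0.07. Over all genes tested, 27.7% rose and 29.2% fell, and the split of these 6 was not tested against that. Class I molecules pair a heavy chain with the light chain B2m and carry peptides that the transporter of TAP1 and TAP2 brings in, with tapasin (Tapbp) bridging transporter and heavy chain. H2-K1, a heavy chain gene, had an FPKM of 485 in WT and 505 in KR before refeeding (478 to 492 and 498 to 512) and of 524 in WT and 539 in KR after it (515 to 533 and 528 to 551), a refeeding change of 0.10 ± 0.05 that did not pass (adjusted p = 0.11), although its refed bounds lay above the fasted ones in each genotype. H2-D1, the other heavy chain gene, went down in the same order of libraries, at 360 (354 to 366), 333 (328 to 339), 319 (312 to 326) and 299 (290 to 307). It fell by 0.17 ± 0.05 with refeeding on the log2 scale (adjusted p = 0.0223), a call lost without the mean-variance trend. B2m lies on chromosome 2 at 121973422 to 121978818. It had an FPKM of 239 in WT and 283 in KR before refeeding (231 to 246 and 275 to 291) and of 279 in WT and 369 in KR after it (270 to 289 and 355 to 384). It rose with refeeding by 0.30 ± 0.06 (adjusted p = 0.00224). Both refed B2m values lay above the fasted value of the same genotype. Heavy chain genes share long stretches of sequence, and the locus of H2-D1 overlaps that of LOC547349, at an FPKM of 69.2 to 93.0, so the division of reads among them is uncertain.

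Of the peptide-loading genes, 1 fell and 2 did not pass. Tap2 had an FPKM of 21.4 (20.2 to 22.6), 19.6 (18.5 to 20.8), 19.1 (17.7 to 20.4) and 14.0 (12.5 to 15.5), and fell by 0.31 ± 0.08 with refeeding on the log2 scale (adjusted p = 0.0132). The refed KR library was low, and the other 3 lay close together. Tapbp stood at 128, 126, 121 and 107, a change of -0.16 ± 0.06 (adjusted p = 0.0528), again with refed KR lowest. Tap1, which encodes the other subunit of the transporter and lies 7253 bases from Tap2, had bounds that overlapped among all 4 libraries and a change of 0.03 ± 0.08.

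**Figure D4:**
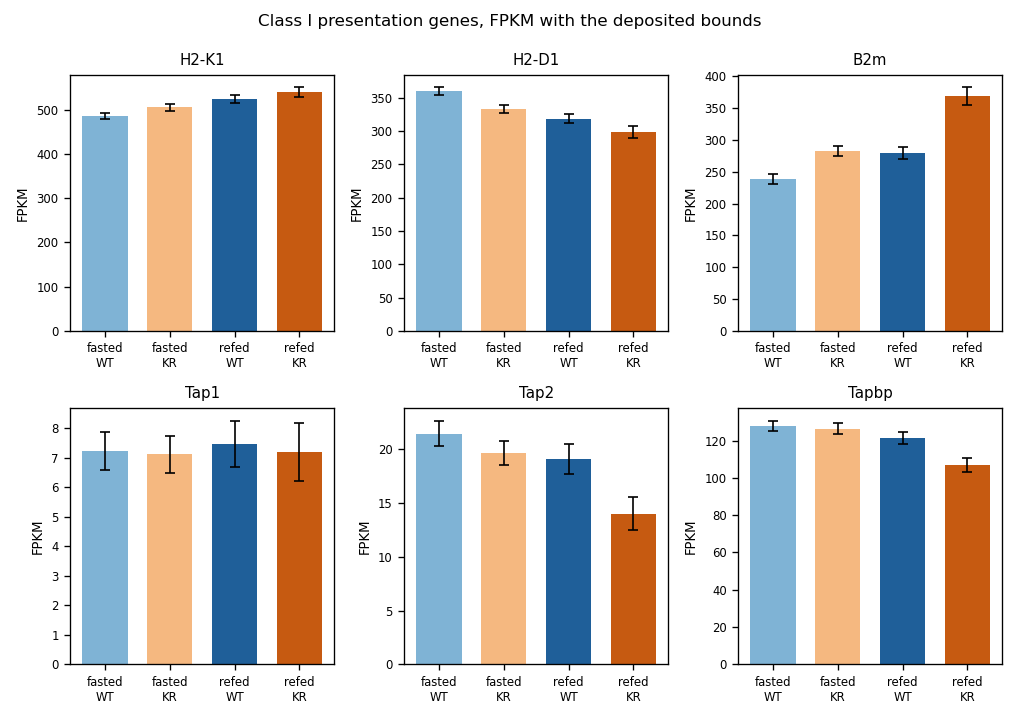
FPKM of the 6 class I presentation genes in the 4 libraries (bars), with the deposited lower and upper bounds (lines). B2m is highest in refed KR at 369, Tap2 is lowest there at 14.0, and H2-K1 and H2-D1 run in opposite directions across the 4 libraries.

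Between genotypes, 1 of the 36 tested members passed in limma, B2m, which was higher in KR, and 35 did not (1.26% of all genes passed, 0.602% higher and 0.661% lower). Its level in KR was 1.19-fold that of WT when fasted and 1.32-fold when refed, with bounds apart in both states. The fitted difference of 0.32 ± 0.06 (adjusted p = 0.041) was not called without the mean-variance trend or without the filter on low values, and over 5 alternatives its adjusted p ran from 6.41e-07 to 0.599. Its locus overlaps that of Patl2, which is listed at 0 in all 4 libraries. None of the 30 tested interferon response genes passed between genotypes in limma, with 3 at an unadjusted p under 0.05 (Irf7, Rsad2, Bst2; 16.4% of all genes), and 1 of them, Rsad2, was called lower in KR by limma-voom run on implied fragments.

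Values beneath these calls were small. No tested member was 2-fold apart between genotypes in either state on the FPKM + 1 scale (0.243% of all genes in the fasted pair and 0.368% in the refed pair). Rsad2 came nearest, with a log2 ratio of KR over WT on this scale of -0.58 in the fasted pair and -0.31 in the refed pair. By FPKM alone it was at 0.51-fold and 0.709-fold. Its fitted difference was -0.44 ± 0.14 (adjusted p = 0.178 in limma). Irf7 was at 0.29 ± 0.12 (adjusted p = 0.262), Tap2 at -0.27 ± 0.08 (adjusted p = 0.177) and Bst2 at -0.21 ± 0.07 (adjusted p = 0.193). Bounds were apart in both states for B2m, higher in KR (1.77% of all genes), and H2-D1, lower (4.82%). In the fasted pair they were apart for 8 members higher in KR (7.47% of all genes), among them Ifih1, Irf1, Irf7, Dtx3l and Cmpk2, and for 3 lower (15.5%), Herc6, Rsad2 and H2-D1. In the refed pair they were apart for 1 higher (3.51%), B2m, and 3 lower (11.8%), H2-D1, Tap2 and Tapbp.

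The 8 members with a mean FPKM under 1 rest on few fragments, and their bounds were wide. Isg15, the ubiquitin-like modifier itself, had an FPKM of 0.630 (0.210 to 1.05), 0.832 (0.351 to 1.31), 0.616 (0.113 to 1.12) and 0.838 (0.0885 to 1.59), from an implied 9, 12, 6 and 5 fragments. These bounds overlapped throughout, so no difference in Isg15 was detectable at this depth. Gbp2, a guanylate-binding protein gene, was higher in the refed libraries, at 0.460 (0.283 to 0.637) and 0.724 (0.503 to 0.945) fasted and 1.10 (0.767 to 1.43) and 1.47 (0.978 to 1.96) refed in WT and KR, with refed bounds above fasted ones in each genotype. Its neighbour in the family, Gbp3, was higher in the KR libraries, at 0.425 (0.259 to 0.592) in WT against 1.25 (0.965 to 1.53) in KR before refeeding, and at 0.669 (0.420 to 0.917) against 1.32 (0.873 to 1.76) after it. The bounds of Gbp3 were apart between genotypes in the fasted pair and overlapped in the refed pair. The remaining 5 showed no bounds apart in any of the 4 pairs. Ifit2 stood at 0.165 to 0.343, Mx1 at 0.148 to 0.499, Mx2 at 0.330 to 0.634 and Ifi47 at 0.250 to 0.698. Ifi44 was listed at 0 in both refed libraries and at 0.0283 and 0.0561 in the fasted ones. Most inbred laboratory mice, C57BL/6 among them, carry a defective Mx1 allele.

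**Figure D5:**
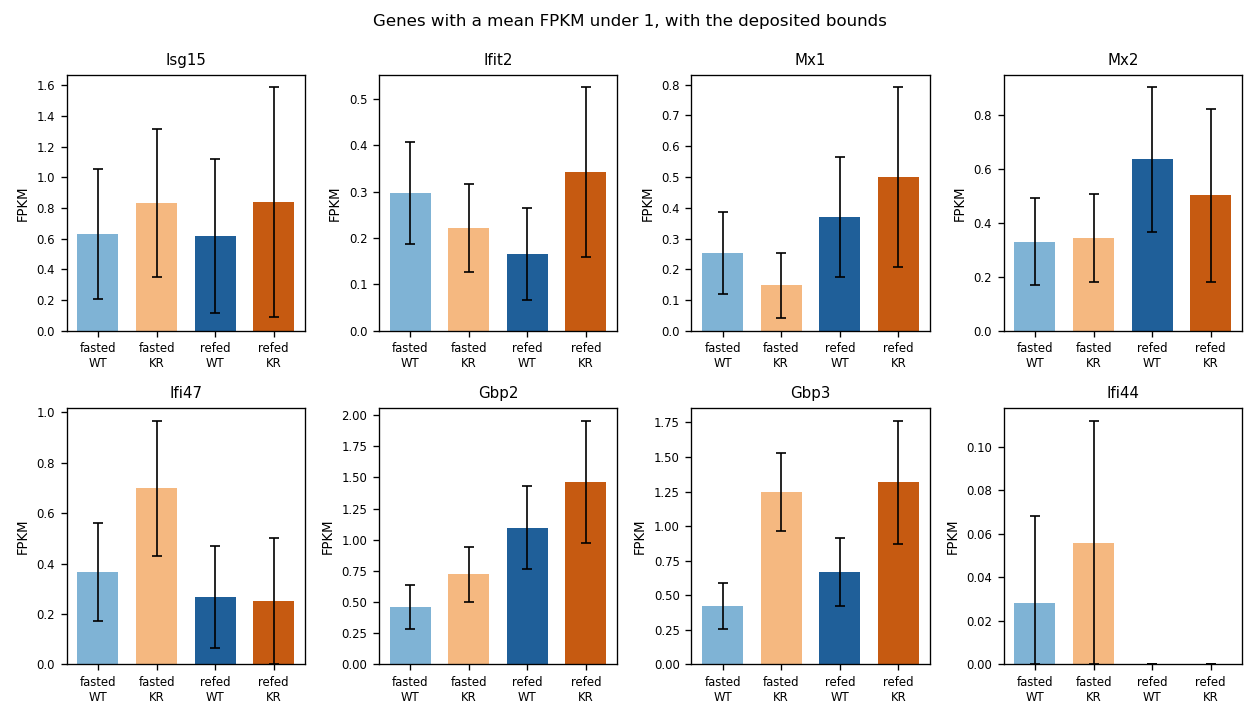
FPKM of the 8 genes with a mean under 1 in the 4 libraries (bars), with the deposited bounds (lines), each panel on its own scale. Gbp2 is higher in both refed libraries, Gbp3 is higher in both KR libraries, and the bounds of Isg15 span most of its panel.

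Other genes of the pathway moved in part with the members. Over all genes tested, 27.7% rose with refeeding and 29.2% fell. Of 12 tested sensors and adaptors outside the 44, 6 rose and 4 fell. Eif2ak2, the gene of the RNA-activated kinase PKR, stood at 5.14, 5.39, 10.6 and 9.67 and rose by 0.83 ± 0.09 (adjusted p = 0.000101), and Tlr3, a sensor of double-stranded RNA in endosomes, rose by 0.63. Of 38 further tested interferon-induced effectors, 16 rose, 8 fell and 14 did not pass, at a median of 0.07. Irgm2, the relative of Irgm1, stood at 2.79, 3.15, 6.63 and 5.01 and was the single tested gene of these lists outside the 44 that was 2-fold apart in a pair on the FPKM + 1 scale. By FPKM alone, Eif2ak2, Tnfsf10, Ddx60, Mlkl and Oas1g were also over 2-fold higher in refed than in fasted WT, and Irf8 was over 2-fold lower in refed than in fasted KR. Of 26 tested class I presentation genes outside the 44, 12 rose, 4 fell and 10 did not pass, at a median of 0.21. The immunoproteasome gene Psmb10 stood at 25.8, 27.1, 43.0 and 41.7 and rose by 0.66 ± 0.07 (adjusted p = 7.64e-05), and the class I chaperone gene Canx fell by 0.35. Eif2ak2, Tlr3, Psmb10 and Canx were chosen as examples after their values were seen. Between genotypes, 2 genes of these lists passed in limma. Ifi30, a lysosomal thiol reductase gene, stood at 122, 92.3, 146 and 104 and fell by 0.44 from WT to KR on the log2 scale (adjusted p = 0.0105), and Ifi27l1 stood at 54.4, 43.5, 66.1 and 51.7 and fell by 0.33 (adjusted p = 0.0401).

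Markers of other cell types moved in both directions with refeeding, and so did all genes tested, of which 27.7% rose and 29.2% fell. Of 9 tested beta-cell markers 6 rose and 0 fell, among them G6pc2 by 1.19, Slc2a2 by 1.03 and Iapp by 0.56 on the log2 scale, all by limma. Of 5 delta and PP cell markers 3 rose and 0 fell, of 4 tested acinar and duct markers 3 rose and 0 fell, and of 7 tested stellate and fibroblast markers 1 rose and 5 fell. Of 17 tested macrophage and dendritic cell markers (19 listed), 2 rose and 6 fell with refeeding, and their summed FPKM was 499 in WT and 533 in KR before refeeding, and 450 and 471 after it. The fallers included Laptm5, by 0.96, and the class II genes Cd74, by 0.94, and H2-Ab1, by 1.12 on the log2 scale. Tyrobp and Fcer1g rose, by 0.24 and 0.20, and the class II gene H2-Aa did not pass, with a change of -0.03. Lymphocyte markers had a summed FPKM of 9.47 and 23.8 fasted and 9.80 and 15.4 refed in WT and KR, with 10, 1, 10 and 8 of the 14 at 0. Neither of the 2 tested lymphocyte markers passed for refeeding. Endothelial markers summed to 32.8 and 23.8 fasted and 21.7 and 19.1 refed, and 1 of 6 tested rose and 4 fell. Between genotypes, Cd74, H2-Aa and H2-Ab1 among the macrophage and dendritic markers and Cd79a and Cd52 among the lymphocyte markers were called higher in KR, the direction of B2m, and none of these immune markers was called lower. Lyz2, a macrophage marker, was at lower levels in KR with bounds apart in both states, a difference of -0.22 ± 0.05 that did not pass (adjusted p = 0.107). Of the 9 tested beta-cell markers, 6 were higher in KR. The part of these cells in the refeeding changes and in the B2m difference was not tested.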

How the data were processed

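RNA of pooled islets was enriched for poly-A and prepared with an Illumina TruSeq kit, per the labels' protocols. The submitters' processing notes name bcl2fastq 1.8.4, TopHat2 2.0.4 and the build mm9. The authors deposited FPKM values with bounds and a status per gene, per the file headers, and the program behind them is not given in the sources used here. A value whose status was not OK was set to missing, and rows of 1 symbol were summed. Fragments implied by the bounds were computed as the square of FPKM over its error, where the error is the distance to the upper bound divided by 2, and lay within 0.05 of a whole number for 73.9% to 74.6% of low genes.

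Tests used limma 3.58.1 in R 4.3.3 on log2(deposited FPKM + 1), with a mean-variance trend, feeding state and genotype as terms and Benjamini-Hochberg adjustment over 11953 genes with a mean of at least 1. This leaves 1 residual degree of freedom, the difference of refeeding ratios between the genotypes, lent 7.58 more by all genes. The p-values thus borrow most of their error estimate from the other genes. They do not measure how pools of 1 group vary, since no group has a replicate library. Fold changes on this scale understate those of low genes. The members, lists and rules were chosen with earlier results of these data known. Values per library are given for members that passed, lay at least 1.41-fold apart in a pair or had a mean of at least 20, and for at least 1 member of each role. Pathway genes outside the 44 are named where called between genotypes or 2-fold apart, as ligands and receptors, or as examples chosen after their values were seen. Alternatives tried were another pseudocount, no filter, no trend, rescaling by the median of ratios and limma-voom.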

Additional observations from a re-analysis of the deposited data

How the results depend on the processing

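The 25 refeeding calls were kept by a pseudocount of 0.1, by rescaling with the median of ratios (26 called in all) and by limma-voom on the implied fragments (27 called), and 24 of them without the mean-variance trend. With no filter on low values 0 members were called by limma for refeeding and 0 for genotype (16 and 4 at an unadjusted p under 0.05), and 0 of 23046 genes in either test, and the cause was not tested. The 1 genotype call, B2m, became 0 without trend and 2 with limma-voom, where Rsad2 joined it. With a pseudocount of 0.1 in place of 1, 5 members were at least 2-fold higher after refeeding in KR, against 3, and 10 in WT, against 7. No member's called change turned its direction in these alternatives or in either single pair. Rescaling moved the share of genotype calls that were higher in KR from 47.7% to 62.8% over all genes, and B2m kept its call there. Leaving out 1 library leaves 0 residual degrees of freedom, so the ratio of the remaining pair is a value with no test. It differed from the fitted change by more than 1 standard error for 18 of 36 members. In this balanced layout that count is the same by construction for both contrasts and for whichever library is left out, so it is a single result. No paired analysis was possible because no group has a replicate. With 1 pool per group, counting depth limits the 8 low genes, and the mice's own spread was not measured.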

Other observations

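Of the 38 tested interferon-induced effectors outside the 44, 8 fell after refeeding and 16 rose. Of the 30 tested interferon response members, 1, Trim25, fell and 21 rose. Tor3a, an endoplasmic reticulum ATPase gene, stood at an FPKM of 55.3 in WT and 54.8 in KR before refeeding, and of 36.5 and 37.3 after it, and fell by 0.56 on the log2 scale in limma (adjusted p = 0.000111). Znfx1, an RNA helicase gene, fell by 0.53 (adjusted p = 0.000269), Pml, which encodes the scaffold of nuclear bodies, by 0.52 (adjusted p = 0.000649) and Ccl5, a chemokine gene, by 0.61 (adjusted p = 0.000346). Cd274, the gene of the checkpoint ligand PD-L1, stood, WT before KR in each state and the fast first, at 18.1, 17.3, 12.8 and 12.1 and fell by 0.48 (adjusted p = 0.000569). Nmi, a gene whose product binds IFI35, stood, in the same order, at 13.4, 12.2, 21.9 and 22.7 and rose by 0.76 (adjusted p = 7.57e-05). These genes were chosen after their values were seen.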
